A study of Homo sapiens with 10 samples.

Results

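The human mitochondrial genome encodes 37 genes, and the deposited table of gene counts held a row for each of them among 58735 genes. They were chosen by name, as the rows whose gene name begins with MT-, and comprise 13 mRNAs, 2 rRNAs and 22 tRNAs. RNA was sequenced from A253 cells, a human line derived from a squamous cell carcinoma of the salivary gland, to ask which genes differ after loss of DUSP1, a phosphatase that inactivates MAP kinases. Cells of all 3 groups carried Cas9 delivered by lentivirus together with a guide RNA: the control had a guide against dTomato, and Cl1 and Cl10 had guides against the introns on both sides of DUSP1 exon 2. Each of Cl1 and Cl10 was 1 clone, heterozygous for the exon 2 deletion (DUSP1-/+), and each group had 2 libraries. Although the deletion was heterozygous, the study reported no DUSP1 protein in either clone. No label says whether the 2 libraries of a group came from separate cultures, so the spread between them may be technical, and an effect of the deletion cannot be told apart from other differences between single clones.

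Both strands of the circular mitochondrial DNA are transcribed into long precursors, the heavy-strand transcript carrying most genes and the light-strand transcript carrying MT-ND6 and 8 of the tRNAs. tRNAs lie between most of the other genes and are cut out by dedicated nucleases, which releases the rRNAs and mRNAs next to them. The free ends of most of these, though not all, are then polyadenylated. The mRNAs encode subunits of respiratory complex I (the MT-ND genes), complex III (MT-CYB), complex IV (the MT-CO genes) and the ATP synthase (the MT-ATP genes), the rRNAs form the core of the mitochondrial ribosome, and the tRNAs serve translation in the organelle.

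In at least 1 comparison, 6 tRNAs passed the test with a log2 fold change beyond 1, and their hg38 sequences are shown because every gene that met this limit, MT-ND3 apart, is among them. Each is written 5′ to 3′ on the strand that encodes it, with the tRNA in capitals and 15 flanking bases on each side in lower case. MT-TV, the tRNA for valine, lies at chrM:1602-1670 with no base between it and MT-RNR1 on one side or MT-RNR2 on the other. MT-TL1, a tRNA for leucine, lies at chrM:3230-3304, directly after MT-RNR2 and 2 bases before MT-ND1. MT-TC, for cysteine, at chrM:5761-5826, and MT-TY, for tyrosine, at chrM:5826-5891, are both encoded on the light-strand transcript and share 1 base. MT-TR, for arginine, at chrM:10405-10469, lies between MT-ND3 and MT-ND4L, and MT-TH, for histidine, at chrM:12138-12206, directly follows MT-ND4.
MT-TV: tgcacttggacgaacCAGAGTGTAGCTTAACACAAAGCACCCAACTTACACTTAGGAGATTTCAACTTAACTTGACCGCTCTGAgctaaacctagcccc
MT-TL1: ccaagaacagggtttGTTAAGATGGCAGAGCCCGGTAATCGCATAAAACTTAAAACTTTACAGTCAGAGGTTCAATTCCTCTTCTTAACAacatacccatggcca
MT-TC: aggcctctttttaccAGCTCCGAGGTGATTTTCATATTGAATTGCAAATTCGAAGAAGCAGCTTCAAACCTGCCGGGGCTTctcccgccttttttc
MT-TY: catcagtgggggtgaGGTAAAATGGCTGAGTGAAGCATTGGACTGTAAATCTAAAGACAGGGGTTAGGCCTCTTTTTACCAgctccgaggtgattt
MT-TR: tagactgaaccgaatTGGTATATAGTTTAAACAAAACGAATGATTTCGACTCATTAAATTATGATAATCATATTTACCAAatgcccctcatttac
MT-TH: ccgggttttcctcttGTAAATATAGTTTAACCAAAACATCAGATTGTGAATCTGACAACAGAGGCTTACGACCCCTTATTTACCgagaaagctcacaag
The tRNA genes measure 59 to 75 bases, shorter than a read of 150 bases. A read on such a gene can therefore also cover its neighbours. The deposited counts do not show whether a read came from the mature tRNA or from a longer transcript that still holds it.

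Library totals ran from 47016495 to 70986593 counts. The targeted gene, DUSP1, had 13.1 and 11.1 normalised CPM (a count divided by its library's size, which was scaled by TMM) in the control, 5.33 and 6.05 in Cl1 and 8.59 and 7.19 in Cl10, below the control in all 4 clone libraries. Counts per gene cannot tell transcripts with exon 2 from those without it. The 6 squamous epithelium markers (KRT5, KRT14, KRT6A, TP63, DSG3 and SFN) summed to 12422 to 13995 normalised CPM in every library, while the 10 markers of leukocytes, endothelium and fibroblasts summed to 47.2 to 54.7 in the control, 52.2 to 55.8 in Cl1 and 34.0 to 34.8 in Cl10. Of these 10, 7 had a mean under 1 normalised CPM, and 4 passed the test in a clone. In Cl10, COL1A1 and COL3A1, the collagens of fibroblasts, were lower (-0.67 and -0.54 on the log2 scale) and CDH5, a cadherin of endothelium, was higher (2.28) at levels under 1 normalised CPM. CDH5 entered that fit only through the Cl10 libraries, so only a rise could have been found. In Cl1, VWF, a clotting factor made by endothelium, was higher (0.93). Their part in the results below was not tested.

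The share of library counts in the 37 genes was lowest in Cl10. It was 3.71% and 4.06% in the 2 control libraries, 4.14% and 4.12% in Cl1, and 2.74% and 2.72% in Cl10. Both Cl10 libraries thus lay below the other 4, and both Cl1 libraries lay slightly above the control. The means were 3.88% ± 0.251 (SD, n = 2) in the control, 4.13% ± 0.0194 in Cl1 and 2.73% ± 0.0155 in Cl10, which made the Cl10 mean 0.704 times the control and 0.662 times Cl1. With 2 libraries against 2, the two-sided exact permutation test gave p = 0.333 for each of the 3 pairs, the smallest it can give. Wilson 95% intervals reached at most 0.00552 percentage points to each side, which covers counting error only. In bulk RNA, fewer cells with a given transcript and less of it per cell cannot be told apart.

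Most of these counts came from the mRNAs. The rRNAs held 17.1% to 21.1% of the mitochondrial counts of a library and the tRNAs 0.376% to 0.474% in these poly(A)-selected libraries. The mRNA share of library counts was 2.95% and 3.26% in the control, 3.25% and 3.29% in Cl1 and 2.24% in each Cl10 library. The rRNA share was 0.737% and 0.781% in the control, 0.876% and 0.806% in Cl1, and 0.492% and 0.465% in Cl10. Both classes were therefore lowest in Cl10. Between 6 and 7 of the 20 most abundant genes of each library were mitochondrial, with a mitochondrial gene at rank 1 or 2.

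Per kilobase, MT-CO2, the subunit of complex IV that accepts electrons from cytochrome c, had the highest level in every group, with 7387 to 8568 normalised CPM per kb in the control, 8011 to 8576 in Cl1 and 4386 to 4480 in Cl10. MT-ND1, a membrane subunit of complex I, had the lowest among the rRNAs and mRNAs, with 337 to 374 in the control, 513 to 568 in Cl1 and 507 to 519 in Cl10. In the control the next after MT-CO2 were MT-CO3 (4555 to 5552), MT-ATP6 (4712 to 5235) and MT-CO1 (4484 to 4899), whose libraries overlapped and gave no order among them. In Cl10, MT-CO1 at 4231 to 4232 came directly after MT-CO2 and above MT-CO3 at 3544 to 3646, with no overlap. MT-RNR1, the small rRNA, stood at 1205 to 1389 and MT-RNR2, the large rRNA, at 3930 to 4148 in the control. MT-ND6, the only mRNA of the light-strand transcript, holds 35.6% G and 7.05% C in its sequence, against 6.28% to 16.2% G and 29.5% to 36.0% C in the other 12 mRNAs, and stood at 855 to 1003 in the control, within the range of the heavy-strand mRNAs. Whether poly(A) selection kept MT-ND6 as well as the other mRNAs was not tested. Whether counting used strand is not given in the sources used here, so reads of one strand's transcripts could have been counted for a gene of the other.

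In Cl1, few of these genes differed from the control, and the share that was higher lay close to that of all genes. Of 28 tested, 4 (14.3%) passed (adjusted p under 0.05) and all 4 were higher, namely MT-TV, MT-TL1, MT-ND1 and MT-TY. Of these, MT-TV entered the fit only through the Cl1 libraries. Over all 20153 genes tested, 12.4% were higher and 12.8% lower by the same rule. None was lower in this fit or with DESeq2, while 2, MT-ND3 and MT-TC, were lower at an unadjusted p under 0.05 from edgeR. Both also passed as lower in one fit over all 6 libraries and without control replicate 1, and MT-ND3 passed with library size alone as the scale. With a log2 fold change beyond 1 as a further condition 3 remained, the tRNAs, beside 7.54% of all genes in either direction. The median log2 fold change was 0.18 over the 13 mRNAs and -0.01 over all genes. MT-TY was at 0.96 without control replicate 1 and at 0.98 with library size alone as the scale, and MT-TL1 was at 0.95 without Cl1 replicate 1. Without Cl1 replicate 1 only 2 genes passed, since MT-ND1 (adjusted p = 0.0818) and MT-TL1 (adjusted p = 0.0626) were lost.

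MT-ND1 (ENSG00000198888) was the one mRNA that passed the test in Cl1 in the fit of those 4 libraries. It had 322 and 357 normalised CPM in the control, 543 and 491 in Cl1 and 496 and 485 in Cl10. All 4 clone libraries were above both control libraries, and the clones overlapped. The log2 fold change was 0.62 in Cl1 (SE 0.129, adjusted p = 0.00416, quasi-likelihood test of edgeR) and 0.55 in Cl10 (SE 0.0910, adjusted p = 0.00331, edgeR). Both comparisons used the same control libraries. Without one or the other Cl10 library it was not past the test in Cl10 (adjusted p up to 0.0605), and the direction was kept.

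The other 12 mRNAs did not pass in Cl1. Their log2 fold changes ran from -0.30 for MT-ND3 to 0.27 for MT-ND6, both subunits of complex I, with adjusted p of 0.106 and 0.174. MT-ND3 passed in 3 of 11 alternative fits, at -0.38 and an adjusted p of 0.0123 (edgeR) without control replicate 1, and MT-ND6 passed without control replicate 2, at 0.39. MT-CO1, the catalytic subunit of complex IV, had 6915 and 7555 normalised CPM in the control and 8688 and 8368 in Cl1, which did not overlap, but its log2 fold change of 0.25 (SE 0.162) had an adjusted p of 0.282. MT-RNR1 and MT-RNR2 had values of -0.18 and 0.29 and did not pass. MT-RNR2 had 6126 and 6467 normalised CPM in the control and 8156 and 7036 in Cl1.

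In Cl10, most mitochondrial mRNAs and both rRNAs fell, while MT-ND1 and 3 tRNAs rose. Of 28 genes tested, 19 passed, 15 lower and 4 higher. Over all 19875 genes tested, 21.8% were lower and 20.6% higher. The genes that fell were 10 of the 13 mRNAs, both rRNAs and the tRNAs MT-TC, MT-TN and MT-TP. Those that rose were MT-ND1, MT-TV, MT-TL1 and MT-TH, of which MT-TV entered the fit only through the Cl10 libraries. With a log2 fold change beyond 1 there were 5, MT-ND3 and MT-TC lower and MT-TV, MT-TL1 and MT-TH higher, beside 13.4% of all genes in either direction. The median log2 fold change was -0.47 over the 13 mRNAs and -0.01 over all genes. Without Cl10 replicate 1, 12 passed, and without Cl10 replicate 2, 11 passed. All 19 kept their direction in the 11 alternative fits, those scaled to mitochondrial mRNA apart.

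**Figure D1:**
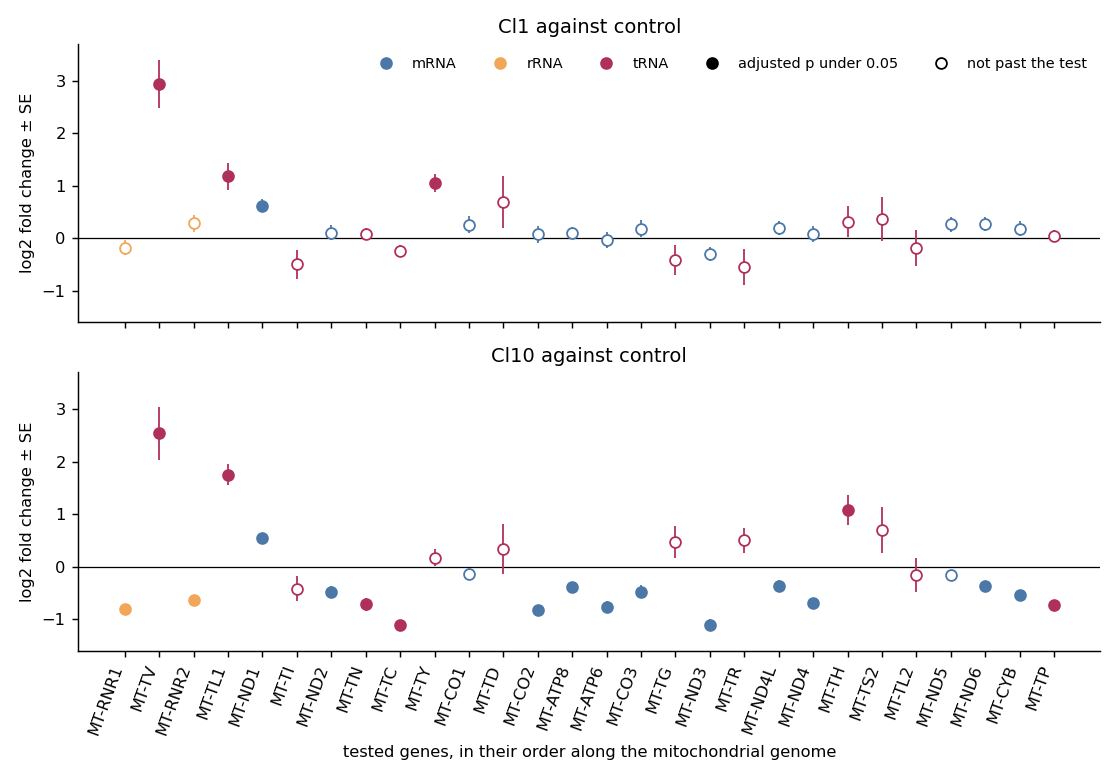
Log2 fold change against the control with its standard error (vertical axis) for the 28 tested genes in their order along the mitochondrial genome, Cl1 above and Cl10 below; filled points have an adjusted p under 0.05. In Cl10 most mRNAs and both rRNAs lie below 0, with MT-TV, MT-TL1 and MT-ND1 above it in both clones, which share their control libraries.

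MT-ND3 (ENSG00000198840), a small core subunit of complex I, fell most among the mRNAs in Cl10. It had 596 and 655 normalised CPM in the control, 513 and 489 in Cl1 and 308 and 263 in Cl10, so that the 3 groups did not overlap. The log2 fold change in Cl10 was -1.12 (SE 0.108, adjusted p = 0.000378, edgeR). The complex I mRNAs as a group were uneven. MT-ND4 (-0.69), MT-ND2 (-0.48), MT-ND6 (-0.37) and MT-ND4L (-0.36) also fell, MT-ND1 rose, and MT-ND5, at 1213 and 1247 in the control and 1104 and 1085 in Cl10, had a log2 fold change of -0.15 that did not pass. Without one or the other Cl10 library MT-ND2, MT-ND6 and MT-ND4L were not past the test (adjusted p up to 0.157, 0.288 and 0.297, edgeR), while MT-ND5 passed without one or the other control library. MT-ND4 and MT-ND4L share 7 bases, and reads on them could have been counted for either or for neither.

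The complex IV subunits differed among themselves in Cl10. MT-CO2 had 5052 and 5861 normalised CPM in the control, 5866 and 5480 in Cl1 and 3064 and 3000 in Cl10. It fell by 0.83 on the log2 scale (SE 0.107, adjusted p = 0.00118, edgeR), with both Cl10 libraries below the other 4. MT-CO3 fell by 0.47 (adjusted p = 0.0167, edgeR), and was no longer past the test without one or the other Cl10 library. MT-CO1 had 6915 and 7555 in the control and 6525 and 6526 in Cl10, and its log2 fold change of -0.13 (SE 0.0975) did not pass (adjusted p = 0.313), except without control replicate 1 (-0.21).

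MT-CYB, the cytochrome b of complex III, had 2130 and 2349 normalised CPM in the control and 1521 and 1538 in Cl10, a log2 fold change of -0.53. MT-ATP6, the proton channel subunit of the ATP synthase, went from 3209 and 3565 to 1945 and 2003, a log2 fold change of -0.76, and MT-ATP8 from 201 and 190 to 140 and 153, a value of -0.40. All 3 passed, with groups that did not overlap, but MT-CYB and MT-ATP8 were not past the test without one or the other Cl10 library (adjusted p up to 0.121 and 0.264, edgeR). MT-ATP8 and MT-ATP6 share 46 bases. MTATP6P1, a near-complete copy of MT-ATP6 on chromosome 1, took 5008 to 12558 counts per library against 96720 to 224606 for MT-ATP6, so reads of one may stand in the other's count. Its log2 fold change in Cl10 was -0.68 (adjusted p = 0.0147, edgeR).

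Both rRNAs fell in Cl10. MT-RNR1 had 1149 and 1325 normalised CPM in the control, 1144 and 1018 in Cl1 and 710 and 687 in Cl10. Its log2 fold change in Cl10 was -0.81 (SE 0.102, adjusted p = 0.00107, edgeR). MT-RNR2 had 4122 and 3843 in Cl10, below both control libraries, with a log2 fold change of -0.64 (SE 0.0958, adjusted p = 0.00209, edgeR). It was not past the test without Cl10 replicate 2 (adjusted p = 0.101).

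Of the tRNAs, 3 light-strand genes held almost all counts. MT-TC, MT-TN (asparagine) and MT-TP (proline) together made up 94.3% to 95.0% of tRNA counts in the control, 91.5% to 93.1% in Cl1 and 85.6% to 87.2% in Cl10. MT-TN and MT-TC flank a stretch of 31 bases, the origin of light-strand replication. MT-TC had 70.7 and 76.6 normalised CPM in the control, 61.1 and 61.4 in Cl1 and 34.5 and 32.5 in Cl10, and the groups did not overlap. It fell in Cl10 by 1.12 on the log2 scale (SE 0.0855, adjusted p = 0.000174, edgeR). MT-TN, at 50.6 and 52.7 in the control and 34.8 and 27.2 in Cl10, and MT-TP, at 43.5 and 45.6 and then 27.8 and 25.6, fell by 0.72 each. In Cl1 none of these 3 passed, with log2 fold changes of -0.25 for MT-TC, 0.09 for MT-TN and 0.05 for MT-TP.

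MT-TV and MT-TL1, the tRNAs on each side of MT-RNR2 whose sequences are given above, rose in both clones. MT-TV (ENSG00000210077) had 8 and 6 raw counts in the control, 76 and 31 in Cl1 and 27 and 44 in Cl10. All 4 clone libraries lay above the control, and the 2 libraries of each clone differed widely. The log2 fold change was 2.93 in Cl1 (SE 0.462, adjusted p = 0.000659, edgeR) and 2.54 in Cl10 (SE 0.504, adjusted p = 0.00661, edgeR). With so few counts in the control, MT-TV entered each fit only through the clone libraries, so only a rise could have been found. MT-TL1 (ENSG00000209082) had 53 and 50 raw counts in the control, 148 and 81 in Cl1 and 163 and 141 in Cl10. In normalised CPM this was 0.786 and 0.937, 2.21 and 1.62, and 2.78 and 2.92, so that the 3 groups did not overlap. The log2 fold change was 1.18 in Cl1 (SE 0.258, adjusted p = 0.00548, edgeR) and 1.75 in Cl10 (SE 0.200, adjusted p = 0.000733, edgeR). Both genes had few reads beside the 185573 to 545176 counts of MT-RNR2, which adjoins both.

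MT-TH rose in Cl10 and MT-TY in Cl1. MT-TH (ENSG00000210176) had 52 and 69 raw counts in the control, 85 and 62 in Cl1 and 135 and 94 in Cl10. Its log2 fold change in Cl10 was 1.08 (SE 0.278, adjusted p = 0.0191, edgeR), and in Cl1, where the groups overlapped, it was 0.32 (adjusted p = 0.468, edgeR). The value in Cl10 was 0.72 without control replicate 1. MT-TY (ENSG00000210144) had 2.33 and 2.60 normalised CPM in the control, 5.21 and 4.89 in Cl1 and 2.64 and 2.84 in Cl10. Only the Cl1 libraries stood apart from the rest by a wide gap. The log2 fold change was 1.05 in Cl1 (SE 0.171, adjusted p = 0.000860, edgeR) and 0.17 in Cl10, which did not pass. MT-TY adjoins MT-TC, which did not pass in Cl1 and fell in Cl10.

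**Figure D2:**
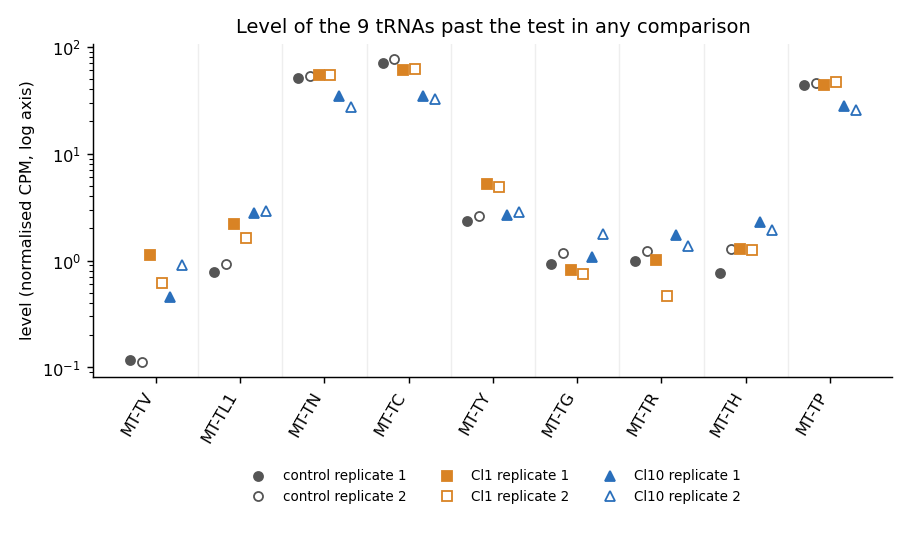
Level of the 9 tRNAs that passed the test in any comparison, in each library, as normalised CPM on a log axis; filled symbols are replicate 1 and open symbols replicate 2. MT-TN, MT-TC and MT-TP are the most abundant and lowest in Cl10, MT-TV and MT-TL1 lie above the control in both clones, and MT-TY stands out in Cl1.

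The summed levels of the heavy-strand and light-strand tRNAs thus differed in direction in Cl10, with MT-TN, MT-TC and MT-TP holding most of the light-strand sum. As the strand setting of the counting is not given, reads of the opposite transcript may stand in either sum. Summed over the 14 heavy-strand tRNAs, the level was 6.05 and 7.63 normalised CPM in the control, 9.19 and 6.88 in Cl1 and 11.03 and 11.18 in Cl10. Summed over the 8 light-strand tRNAs, it was 167 and 178 in the control, 165 and 168 in Cl1 and 100.2 and 88.4 in Cl10. Light-strand tRNAs other than MT-TN, MT-TC and MT-TP held few raw counts. These were 173 and 155 in the control, 379 and 262 in Cl1 and 185 and 150 in Cl10. Of the heavy-strand tRNAs, MT-TV, MT-TL1 and MT-TH passed as higher in Cl10. MT-TI and MT-TL2 had log2 fold changes of -0.42 and -0.16 there and did not pass. The light-strand part of all tRNA counts was 96.5% and 95.9% in the control, 94.7% and 96.1% in Cl1 and 90.1% and 88.8% in Cl10, where it did not overlap with the other 4 libraries (two-sided exact permutation test, p = 0.333, the smallest that 2 against 2 libraries can give). Of the 22 tRNAs, 10 had at most 19 counts in every library, and 9 of these 10 were not tested against the control. Of the remaining tRNAs that passed in no comparison, MT-TI (isoleucine) had 34 to 73 counts, MT-TL2 (leucine) 32 to 52 and MT-TS2 (serine) 13 to 35.

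RNAs that mostly lack a poly(A) tail, such as histone mRNAs and small nuclear RNAs, were set beside these tRNAs. Of 34 listed, 26 were found, and they summed to 44.7 and 39.7 normalised CPM in the control, 56.7 and 55.0 in Cl1 and 43.5 and 35.1 in Cl10. Most of this was RN7SL2, the RNA of the signal recognition particle, which passed as higher in Cl1 (log2 fold change 0.42) and not in Cl10 (-0.15). Without it the sum was 1.04 and 0.993 in the control, 1.27 and 1.00 in Cl1 and 2.74 and 2.63 in Cl10. Both Cl10 libraries lay above the other 4 in this remainder, but not in the sum of all 26 found. Of 5 tested in Cl10, 2 passed, both higher with a log2 fold change beyond 1, namely RNU5A-1, a spliceosomal RNA (3.36), and SNORD3A, a nucleolar RNA (1.57). RNU5A-1 entered this fit only through the Cl10 libraries, so only a rise could have been found. In Cl10 against Cl1, 3 of 5 were higher and RN7SL2 lower, and the 3 entered that fit only through the Cl10 libraries. These genes were named after their values were seen, and their part in the tRNA results was not tested.

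The clones also differed from each other. In Cl10 against Cl1, 18 of 29 genes tested were lower and 4 higher, beside 24.1% lower and 24.9% higher among all 19818 genes tested. Lower in Cl10 were 12 of the 13 mRNAs, both rRNAs and MT-TC, MT-TN, MT-TP and MT-TY. Higher were the heavy-strand tRNAs MT-TL1, MT-TH, MT-TG (glycine) and MT-TR, and only MT-TR exceeded a log2 fold change of 1, beside 10.8% of all genes in either direction. The median over the mRNAs was -0.63, from -0.90 for MT-CO2 to -0.07 for MT-ND1, which did not pass (SE 0.0638, adjusted p = 0.378). MT-TR (ENSG00000210174) had 0.994 and 1.24 normalised CPM in the control, 1.00 and 0.461 in Cl1 and 1.72 and 1.37 in Cl10, and its log2 fold change of 1.05 (SE 0.316, adjusted p = 0.0151, edgeR) was 0.64 and not past the test without Cl1 replicate 2. MT-TG had 54 and 37 raw counts in Cl1 and 64 and 86 in Cl10, a log2 fold change of 0.88 that was not past the test without Cl10 replicate 2 (0.49) or with DESeq2. MT-TL1 was likewise not past the test without Cl1 replicate 2, without Cl10 replicate 2, with DESeq2 or in one fit over 6 libraries, and MT-TH not without Cl10 replicate 1 (adjusted p = 0.0845, edgeR). MT-CO1 was not past the test without one or the other Cl10 library (adjusted p up to 0.0689, edgeR).

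To see which genes moved apart from the bulk of mitochondrial mRNA, the fits were repeated with the summed counts of the 13 mRNAs as library size, a scale on which the median of all genes moved to -0.16 in Cl1 and 0.46 in Cl10. In Cl1, 6 of 28 genes passed, beside 22% of all genes in either direction. MT-TV, MT-TL1, MT-ND1 and MT-TY were higher and MT-ND3 and MT-TC lower. In Cl10, 15 of 28 genes passed, 9 higher and 6 lower, which was close to the 54.7% of all genes. The 9 were MT-ND1 (log2 fold change 1.02, SE 0.0766), MT-CO1 (0.34), MT-ND5 (0.32) and the tRNAs MT-TV, MT-TL1, MT-TH, MT-TR, MT-TG and MT-TY. The 6 were MT-RNR1 (-0.33), MT-CO2 (-0.36), MT-ATP6 (-0.29), MT-ND4 (-0.22), MT-ND3 (-0.64) and MT-TC (-0.65). In Cl10 against Cl1, 13 of 28 passed, 8 higher and 5 lower, beside 71.6% of all genes. In no comparison did the count exceed the share of all genes. The log2 fold changes of the mRNAs in Cl10 ran from -0.64 for MT-ND3 to 1.02 for MT-ND1. Because the mRNAs set this scale, some of them lie above it where others lie below.

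Ratios of raw counts between neighbouring genes need no scaling between libraries. The pairs were chosen after the values had been seen, so they are given without a test. MT-ND1 had 0.313 and 0.297 counts per count of MT-ND2 in the control, 0.447 and 0.421 in Cl1 and 0.622 and 0.615 in Cl10. MT-CO1 had 1.37 and 1.29 per count of MT-CO2 in the control, 1.48 and 1.53 in Cl1 and 2.13 and 2.18 in Cl10. For both pairs the ratio was lowest in the control and highest in Cl10, without overlap. MT-RNR2 had 5.33 and 4.88 per count of MT-RNR1 in the control, 7.13 and 6.91 in Cl1 and 5.80 and 5.59 in Cl10, so this ratio was highest in Cl1.

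Nuclear genes supply the machinery that copies, transcribes and processes the mitochondrial genome. Of 26 genes for maintenance and transcription of mitochondrial DNA, 1 was higher and 4 lower in Cl1, beside 12.4% and 12.8% of all genes, and 5 were higher and 9 lower in Cl10, beside 20.6% and 21.8% of all genes. TFAM, which packages the DNA and starts transcription, had 36.2 and 39.6 normalised CPM in the control, 40.7 and 39.4 in Cl1 and 50.8 and 49.8 in Cl10. It rose in Cl10 (log2 fold change 0.43, SE 0.0836, adjusted p = 0.00660, edgeR) and did not pass in Cl1. POLRMT, the mitochondrial RNA polymerase, fell in Cl10 by 0.32 on the log2 scale, from 141 and 136 to 111 and 108. TFB1M, which methylates the small rRNA, had 31.9 and 36.2 in the control, 21.63 and 20.99 in Cl1 and 9.72 and 11.6 in Cl10. It fell in both clones, by 0.66 in Cl1 and by 1.66 in Cl10, and POLG2, the accessory subunit of the mitochondrial DNA polymerase, fell by 1.07 in Cl10. Of the 24 genes found for processing and stability of mitochondrial RNA, 1 was higher and 2 lower in Cl1 and 5 higher and 3 lower in Cl10, beside the same shares of all genes. LRPPRC, which stabilises mitochondrial mRNAs, had 142 and 129 in the control, 171 and 159 in Cl1 and 137 and 141 in Cl10, and neither clone passed (0.30 and 0.06 on the log2 scale).

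The nuclear subunits of the complexes that also hold mitochondrially encoded subunits were lower or not past the test in Cl10. None was higher with edgeR or with DESeq2, and 1, of complex I, was higher at an unadjusted p under 0.05 from edgeR. Of complex I, 10 of 37 were lower (median log2 fold change -0.15), of complex III 3 of 9 (-0.26), of complex IV 5 of 11 (-0.36) and of the ATP synthase 5 of 16 found (-0.23), beside a median of -0.01 over all genes and the 21.8% of all genes that were lower. NDUFA4, a subunit of complex IV, had 131 and 157 normalised CPM in the control, 130 and 132 in Cl1 and 64.8 and 58.2 in Cl10, a log2 fold change of -1.21 (SE 0.113, adjusted p = 0.000339, edgeR). ATP5ME and ATP5MC2, membrane subunits of the ATP synthase, fell in Cl10 by 1.73 and 1.11. In Cl1, 2 subunits of complex I were higher and 1 lower, 1 of the ATP synthase was lower (ATP5ME, -0.62), and none of complex III or IV passed with edgeR or with DESeq2, where 1 of complex III was lower at an unadjusted p under 0.05 from edgeR. Of complex II, which holds no mitochondrially encoded subunit, 1 of 4 was lower in Cl10 (median -0.19) and 1 higher in Cl1.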

How the data were processed

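RNA from 6 libraries of A253 cells (control, Cl1 and Cl10, 2 each) was analysed; 4 libraries of a SOX2 experiment were not analysed here. According to the study's methods the authors used HISAT2 for alignment (hg38) and HTSeq for counting, and the submitters' processing notes name HISAT2, StringTie and DESeq. The deposited values are raw counts, not normalized. The annotation, the strand setting and the rule for reads shared between genes are not given in the sources used here, and the labels and the methods name different library kits. All 37 genes matched GENCODE release 44 by identifier, and coordinates and sequences come from hg38, whose chrM has 16569 bases.

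Each comparison was fitted on its own 4 libraries over all genes with edgeR 4.0.16 (R 4.3.3; filterByExpr, TMM, estimateDisp, glmQLFit, glmQLFTest, Benjamini-Hochberg). A gene passed at an adjusted p under 0.05. An SE was derived from each unshrunk fold change and its F statistic. Alternatives were DESeq2 1.42.0, other scalings, no filter, a fit over 6 libraries, the replicate block and leaving out each library. On simulated counts for Cl1 against the control over 20153 genes, the fit recovered 200 of 200 genes changed 4-fold, with 3 false calls. The changed genes were drawn from those with higher counts, and the spread was set alike for all genes. A call there also needed a log2 fold change beyond 1. Smaller changes, genes with few counts and the adjusted p alone were therefore not covered by the simulation. Shares were compared by exact permutation over libraries. Named are all rRNAs and mRNAs, every tRNA past the test in any comparison, TFAM, POLRMT and LRPPRC, and at most 2 called genes with a mean of at least 5 CPM per nuclear list and direction. A floor of 3 counts per library served as the limit of detection. The genes and lists were chosen with earlier results of these data known.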

Additional observations from a re-analysis of the deposited data

Results flagged for a closer look

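The change from the control differed between the clones, by the test of Cl10 against Cl1 itself (edgeR's quasi-likelihood test, adjusted p under 0.05), for 22 of the 29 mitochondrial genes tested. It was lower in Cl10 for 18 of them and higher for 4. The largest of the former was MT-RNR2, with log2 fold changes of 0.29 in Cl1, -0.64 in Cl10 and -0.93 between them, followed by MT-CO2 with 0.07, -0.83 and -0.90. Of the latter, MT-TR passed against the control in neither clone (-0.56 for Cl1, 0.50 for Cl10) and had 1.05 between the clones. With DESeq2, 18 were lower and 2 higher. Groups of 2 libraries were too small for a check of single libraries that stand apart.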

How the results depend on the processing

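With a replicate block 4, 19 and 22 genes passed (Cl1 and Cl10 against the control, Cl10 against Cl1), as without it, and the median log2 fold changes of the mRNAs were 0.18, -0.47 and -0.63. No label says whether same-numbered libraries were handled together. Their deviations correlated at -0.069, -0.016 and 0.008 across 20638 genes, which cannot settle it. Replicate 1 had more counts than replicate 2 in each group. Leaving out 1 library gave 2 to 6, 11 to 21 and 19 to 22 genes, and medians of 0.10 to 0.23, -0.60 to -0.44 and -0.66 to -0.58. With 1 library left in a group, that library is assumed to vary like the others. Library size alone as the scale gave medians of 0.11 (Cl1) and -0.56 (Cl10 against Cl1), and scaling to mitochondrial mRNA left 13 genes past the test in Cl10 against Cl1. The difference in share from the control was 0.0682 to 0.423 percentage points in Cl1 and -1.33 to -0.972 in Cl10 when a library was left out. Scaling to mitochondrial mRNA turned MT-CO1 from -0.38 to 0.23 and MT-ND5 from -0.41 to 0.20 in Cl10 against Cl1, both past the test on each scale, and put other genes near 0 on the other side of it. With this scale set aside, no gene past the test in the fits reported above changed direction. MT-ND1 in Cl10 against Cl1, at -0.07 there, was -0.14 and past the test without Cl1 replicate 2 and 0.00095 with library size alone. Of the genes that passed, 2 of 4, 11 of 19 and 17 of 22 did so in all 11 other fits. Depth limits the 10 tRNAs with at most 19 counts per library.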

Other observations

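Over all genes tested, 12.4% were higher and 12.8% lower in Cl1, and 20.6% were higher and 21.8% lower in Cl10. Of 78 mitochondrial ribosomal proteins, 2 were higher and 9 lower in Cl1, and 7 were higher and 25 lower in Cl10, with medians of -0.12 and -0.13 on the log2 scale. Of 34 genes found for modification and charging of mitochondrial tRNAs, 2 were higher and 7 lower in Cl1, and 3 were higher and 9 lower in Cl10. Of 13 tested nuclear regulators of mitochondrial biogenesis, 3 were higher in Cl1 and 2 in Cl10. None of them was lower in either clone with edgeR or with DESeq2, and 1 was lower in Cl10 at an unadjusted p under 0.05 from edgeR.

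The nuclear genome holds 407 rows annotated as copies of mitochondrial genes, and 295 of them had no count in any library. They took 0.0252% to 0.0433% of the counts of a library. Most of these counts lay in MTATP6P1 and MTND2P28 on chromosome 1. Adding all such rows to the mitochondrial share left it at 2.75% to 2.78% in Cl10 and 3.75% to 4.18% in the other 4 libraries.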
